A study of Mus musculus with 8 samples.

Results

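A module of 40 genes of the interferon response and the immunoproteasome was followed in mouse liver on 8 two-colour Agilent arrays. The genes were found by symbol: a feature of the deposited table counted when the platform's probe-to-gene table gave it a single symbol and that symbol was 1 of the 40. This gave 56 features of 39 genes, 13 of them with more than 1 feature, out of 45220 features and 19087 measured genes, and Ifi44 had no such feature. They comprise 4 transcription factors, 5 genes of the Isg15 and Ifit system, 6 Oas genes, 9 other antiviral effectors (8 measured), 2 RNA sensors, 8 GTPases, 2 chemokines, and the 3 immunoproteasome subunits with the peptide transporter Tap1.

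Each array set liver total RNA of a Wrn mutant mouse against liver total RNA of a wild type mouse. Wrn encodes a RecQ helicase, and the labels call the mice Wrn mutants without naming the allele. In 4 arrays the mutant had been treated with vitamin C (treated arrays 1 to 4), and in 4 it was untreated (untreated arrays 1 to 4). All mice were 9 months old and of the strain C57Bl/6, and neither the vitamin C dose nor its duration is stated in the labels. The mutant RNA carried Cy5 on arrays 1 and 2 of each group and Cy3 on arrays 3 and 4. Both arrays of a number name the same wild type number, which is read here as the same wild type RNA, so the comparisons with wild type share their 4 wild type samples.

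Interferons are secreted proteins that bind receptors on nearby cells and, through the JAK kinases and factors such as Stat2 and Irf9, switch on a shared set of antiviral genes. Type I interferons act mainly through DNA sites of the ISRE type, and interferon gamma mainly through sites of the GAS type. The immunoproteasome is a form of the proteasome in which interferon-inducible catalytic subunits replace the constitutive ones. It cuts proteins into peptides that Tap1 and its partner carry to class I molecules for display to T cells. In the liver, Kupffer cells, the resident macrophages, are a known site of interferon responses beside the hepatocytes.

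The RefSeq table held a promoter window for 31 of the 40 genes, 250 bases before and 50 after the annotated start (build GRCm38.p6). The motif GAAA, any 2 bases (NN), then GAAA, searched on both strands and called an ISRE-type match here, stood in the windows of 17 of the 31 genes (54.8%), against 1079 of 27025 genes with an entry (3.99%). The palindromic motif TTC, any 3 bases (NNN), then GAA, called a GAS-type match, stood in 7 of the 31 (22.6%), against 9.55% of all genes. Both were found in Bst2, Oas1a, Igtp and Irgm2 (12.9%, against 0.614% of all genes), and neither in 11 genes. Of the 6 GTPases with an entry, 5 held the ISRE-type match, while of the 4 immunoproteasome and Tap1 genes none did and Psmb8 held a GAS-type match. The 7 windows below, 5′ to 3′ on the strand of the gene with matches in capitals, were chosen to show these arrangements: ISRE-type matches, both types, GAS-type matches and no match.
Isg15: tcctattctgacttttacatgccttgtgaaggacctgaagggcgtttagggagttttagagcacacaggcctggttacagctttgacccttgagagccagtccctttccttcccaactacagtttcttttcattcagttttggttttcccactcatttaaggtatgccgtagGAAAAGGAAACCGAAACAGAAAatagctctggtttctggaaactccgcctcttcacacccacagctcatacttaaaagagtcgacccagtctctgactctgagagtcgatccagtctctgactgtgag
Ifit1: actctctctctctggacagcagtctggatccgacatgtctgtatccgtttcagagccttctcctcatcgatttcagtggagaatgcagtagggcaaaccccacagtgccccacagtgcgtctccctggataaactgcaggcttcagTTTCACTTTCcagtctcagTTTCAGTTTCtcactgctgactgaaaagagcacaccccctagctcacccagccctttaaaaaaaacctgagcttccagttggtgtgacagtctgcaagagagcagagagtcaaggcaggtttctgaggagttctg
Igtp: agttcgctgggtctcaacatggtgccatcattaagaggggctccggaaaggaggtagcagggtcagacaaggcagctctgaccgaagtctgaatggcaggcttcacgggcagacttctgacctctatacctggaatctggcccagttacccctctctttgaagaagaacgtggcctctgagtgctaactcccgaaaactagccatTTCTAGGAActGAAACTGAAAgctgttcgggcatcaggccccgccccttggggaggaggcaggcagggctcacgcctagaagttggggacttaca
Bst2: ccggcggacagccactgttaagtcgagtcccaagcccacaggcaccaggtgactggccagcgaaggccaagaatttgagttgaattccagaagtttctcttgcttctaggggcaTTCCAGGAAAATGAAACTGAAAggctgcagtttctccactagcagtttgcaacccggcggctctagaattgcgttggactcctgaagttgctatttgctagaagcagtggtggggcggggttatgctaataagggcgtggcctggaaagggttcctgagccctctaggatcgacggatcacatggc
Irf1 (the first of its 2 windows): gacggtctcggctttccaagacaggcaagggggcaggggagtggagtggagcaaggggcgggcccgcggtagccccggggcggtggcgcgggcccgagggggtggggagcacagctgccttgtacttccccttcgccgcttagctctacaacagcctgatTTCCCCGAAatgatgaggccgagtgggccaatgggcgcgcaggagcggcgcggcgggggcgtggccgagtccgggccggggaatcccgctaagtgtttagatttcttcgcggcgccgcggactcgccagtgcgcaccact
Psmb8: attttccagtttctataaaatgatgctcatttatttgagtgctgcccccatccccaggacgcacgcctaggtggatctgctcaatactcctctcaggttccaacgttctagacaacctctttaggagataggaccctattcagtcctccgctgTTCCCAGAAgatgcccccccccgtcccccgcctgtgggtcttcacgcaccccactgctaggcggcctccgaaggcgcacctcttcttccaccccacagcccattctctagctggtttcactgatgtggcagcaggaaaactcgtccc
Tap1: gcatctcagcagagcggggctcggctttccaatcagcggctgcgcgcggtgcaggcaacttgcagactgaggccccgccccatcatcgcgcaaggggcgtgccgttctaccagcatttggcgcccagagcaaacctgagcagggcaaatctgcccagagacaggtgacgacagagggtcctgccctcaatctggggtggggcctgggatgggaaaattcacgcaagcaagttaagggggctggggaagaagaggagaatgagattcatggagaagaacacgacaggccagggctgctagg

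These windows lie at chr4:156200769-156201068 (Isg15, minus strand), chr19:34640639-34640938 (Ifit1, plus strand), chr11:58199306-58199605 (Igtp, plus strand), chr8:71537423-71537722 (Bst2, minus strand), chr11:53769764-53770063 (Irf1, plus strand), chr17:34197945-34198244 (Psmb8, plus strand) and chr17:34187306-34187605 (Tap1, plus strand). Isg15 holds 3 overlapping ISRE-type matches between bases -78 and -57, counted with the first base after the 250 as 0. Ifit1 holds 2, and its neighbours Ifit3 and Ifit2 on chromosome 19 hold 2 ISRE-type matches and 1 GAS-type match. In Igtp a GAS-type match at -45 is followed by an ISRE-type match at -34, and Irgm2, the next coding gene in the RefSeq order, has the same pair at -75 and -64. In Bst2 the 2 motifs overlap. The Tap1 and Psmb9 windows run head to head and share 275 of 300 bases, so they are 1 region read from both sides. A match is a string of letters and was not tested as a binding site.

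**Figure D1:**
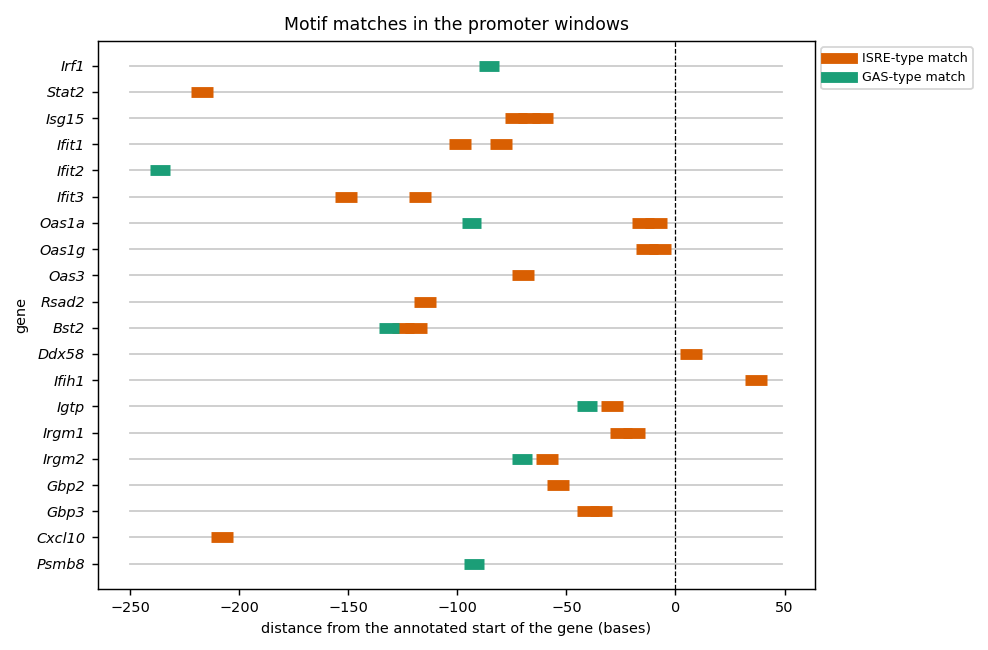
Positions of ISRE-type matches (orange) and GAS-type matches (green) in the 300-base promoter windows of the genes with a match, as distance in bases from the annotated start (dashed line). Most matches lie just before the start; Ifit2, Stat2 and Cxcl10 have theirs farthest from it (from -241, -222 and -213), and Ddx58 and Ifih1 after it.

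The table gives log ratios and no intensities, so levels, and with them the defining markers of liver tissue, could not be checked. Wrn itself stood at 0.16 ± 0.10 in treated and 0.19 ± 0.10 in untreated mutants over wild type, which does not check the labels, since no label places the mutation relative to the features. Values are read as log2, and as mutant over wild type on every array. This direction is not settled. The array titles name the mutant first on arrays 1 and 2 but wild type first on the dye-swapped arrays 3 and 4. For arrays 3 and 4 the reading rests on the series title and takes them as already turned, against the order of names in their titles. Arrays 1 and 2, with the mutant in Cy5, read the same whether or not the swapped arrays were turned. Group values below are limma estimates ± SE (n = 4 arrays per group), without pairing by number unless a block is named. The series design calls the replicates independent and biological. In bulk liver, a change in the number of cells of a type and a change in RNA per cell cannot be told apart.

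The comparisons ask how mutant liver, with and without vitamin C, differed from wild type liver, and whether vitamin C moved it. No gene of the module passed an adjusted p of 0.05 in limma in any of the 3 comparisons, and none of the 19087 genes did (0.0% in each comparison). The immunoproteasome subunits Psmb8 and Psmb10 stood highest in vitamin C treated mutants over wild type, at 0.74 ± 0.25 (1.67-fold) and 0.60 ± 0.16 (1.51-fold), with adjusted p = 0.664 and 0.610. Over the 39 genes the median log2 ratio of treated mutants was 0.19, with 28 genes above 0 and 11 below, where the median of all genes was 0.00. With the swapped arrays turned, the module's median would be 0.03. An unadjusted p under 0.05 was reached by 4 of 39 genes (10.3%): Psmb8, Psmb10 and Bst2 higher and Oasl1 lower. Among all genes 1354 (7.09%) reached it, 711 higher (3.73%) and 643 lower (3.37%).

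In untreated mutants over wild type the median of the 39 genes was 0.11, with 27 above 0 and 12 below, against -0.01 for all genes, and it would be 0.24 with the swapped arrays turned. Irf1 (0.30 ± 0.13, higher) and Mx1 (-0.32 ± 0.11, lower) were the 2 genes at an unadjusted p under 0.05 (5.13%), near the 7.79% of all genes (1487, of which 599, or 3.14%, higher and 888, or 4.65%, lower). Their adjusted p-values were 0.628 and 0.581. Between treated and untreated mutants the median was 0.13, with 28 genes above 0, against 0.02 for all genes, and it would be -0.20 with the swapped arrays turned. None of the 39 reached an unadjusted p under 0.05 in this limma fit, which does not pair the arrays of a number. Of all genes 817 (4.28%) did, 2.37% higher and 1.91% lower. These comparisons share arrays or wild type RNA, so their medians are not independent.

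With the replicate number as a block, again 0 of the 39 genes passed the adjusted p of 0.05, while 8, 3 and 0 of all genes did in the 3 comparisons in the same order (0.0419%, 0.0157% and 0.0%). Over wild type, the block takes the spread between numbers out of the error, so its p-values there do not measure the spread between replicates. For Irf7 in treated mutants over wild type the SE was 0.11 with the block, against 0.21 without it. At an unadjusted p under 0.05 the block gave 5 genes in treated mutants over wild type, 4 higher and 1 lower (all genes 5.37% and 4.4%). In untreated mutants over wild type it also gave 5, 4 higher and 1 lower (all genes 4.51% and 6.39%). Between treated and untreated mutants it gave 4, namely Irf7 and Bst2, higher in treated mutants, and Stat2 and Gbp2, lower in them, each with an adjusted p of 0.757 under the block. In the same fit 3.85% of all genes were higher and 2.63% lower at that p.

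**Figure D2:**
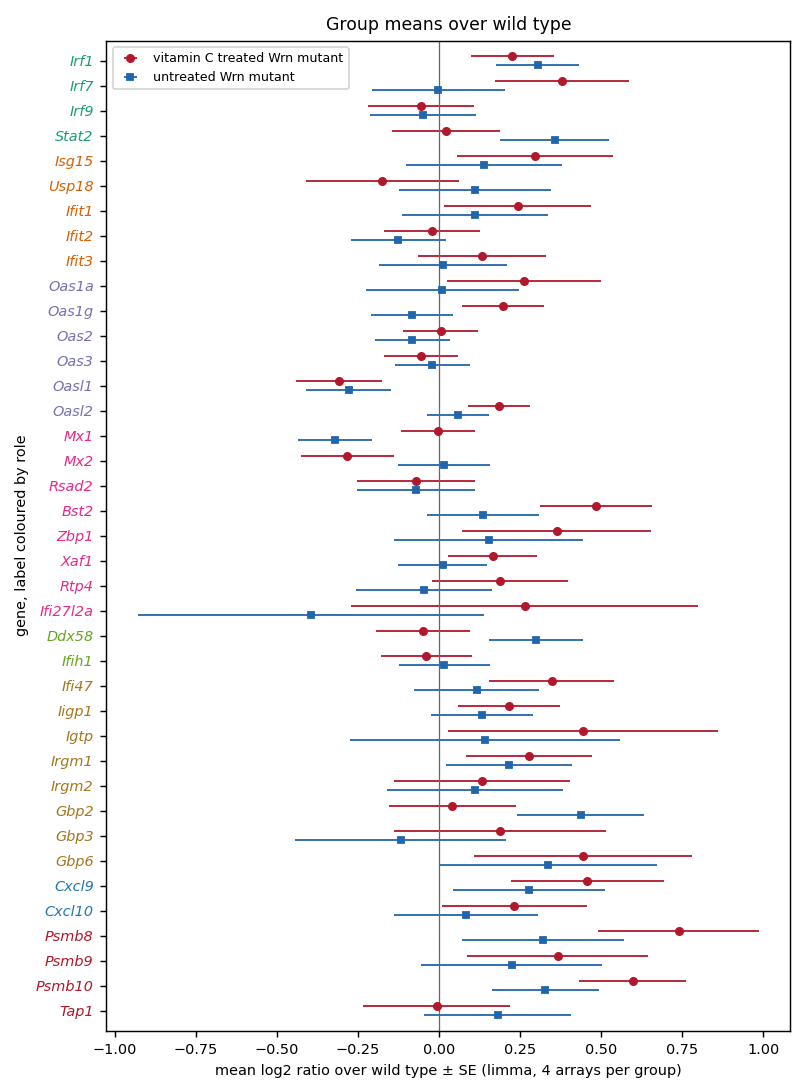
Mean log2 ratio over wild type ± SE (limma, n = 4 arrays per group) of each measured gene, in vitamin C treated (red circles) and untreated (blue squares) Wrn mutants, grouped by role. Psmb8 and Psmb10 lie farthest right among the treated means, and most intervals of the 2 groups overlap.

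Arrays of the same group differed more in these genes than in the median gene. The median SD over the 4 arrays was 0.43 in treated and 0.49 in untreated mutants, against 0.25 and 0.26 over all genes. On treated arrays 1 to 4 the median log2 ratio of the 39 genes was 0.31, 0.06, -0.20 and 0.47. On untreated arrays 1 to 4 it was 0.63, -0.01, -0.07 and -0.30. All-gene medians lay between -0.01 and 0.01 on every array, and each group held at least 1 array with most of the module above wild type and at least 1 with most of it below.

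Counts of genes showed the same split. On treated array 4, 33 of the 39 genes were above 0 and 19 were above 0.5, and on treated array 1 there were 32 and 14. On treated array 3, 12 were above 0 and 12 were below -0.5. On untreated array 1, 35 were above 0 and 23 above 0.5, while on untreated array 4, 9 were above 0 and 13 below -0.5. Among the treated arrays, array 4 had the highest value for 25 of the 39 genes and array 3 the lowest for 29. Among the untreated arrays, array 1 had the highest for 29 and array 4 the lowest for 23, where over all genes no array of a group was highest or lowest for more than 28.7%. This order rests on the sign of arrays 3 and 4. With these turned, the medians of treated arrays 3 and 4 would be 0.20 and -0.47, and those of untreated arrays 3 and 4 would be 0.07 and 0.30. Treated array 4 would then be the lowest of its group for 33 genes and treated array 1 the highest for 19, while untreated array 1 would still be the highest of its group for 20. Without treated array 4 the median of treated mutants over wild type was -0.06, and without untreated array 1 that of untreated mutants was -0.08.

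**Figure D3:**
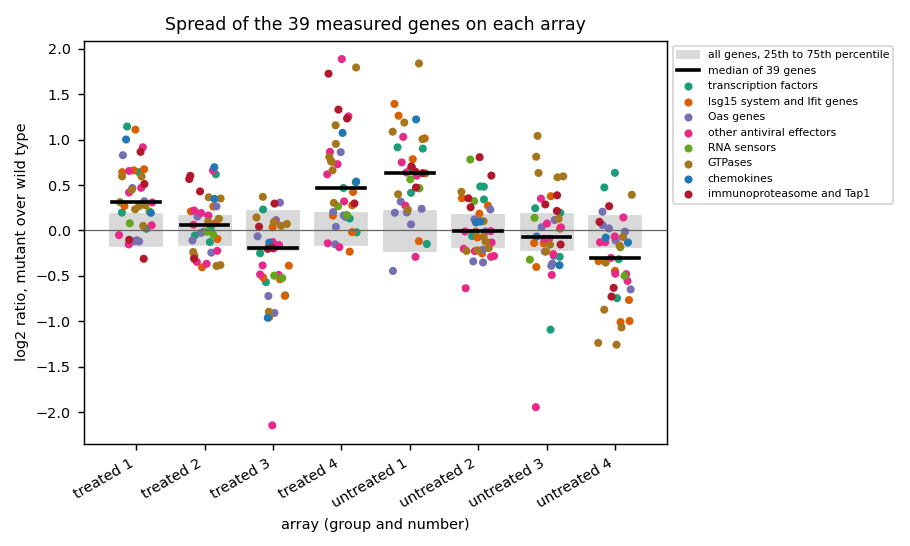
Log2 ratio of mutant over wild type of the 39 measured genes (points, coloured by role) on each array, vitamin C treated mutants left of untreated mutants; black lines are medians of the 39 genes and grey boxes span the 25th to 75th percentile of all genes. The medians run between -0.20 and 0.47 on the treated and between -0.30 and 0.63 on the untreated arrays.

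**Figure D4:**
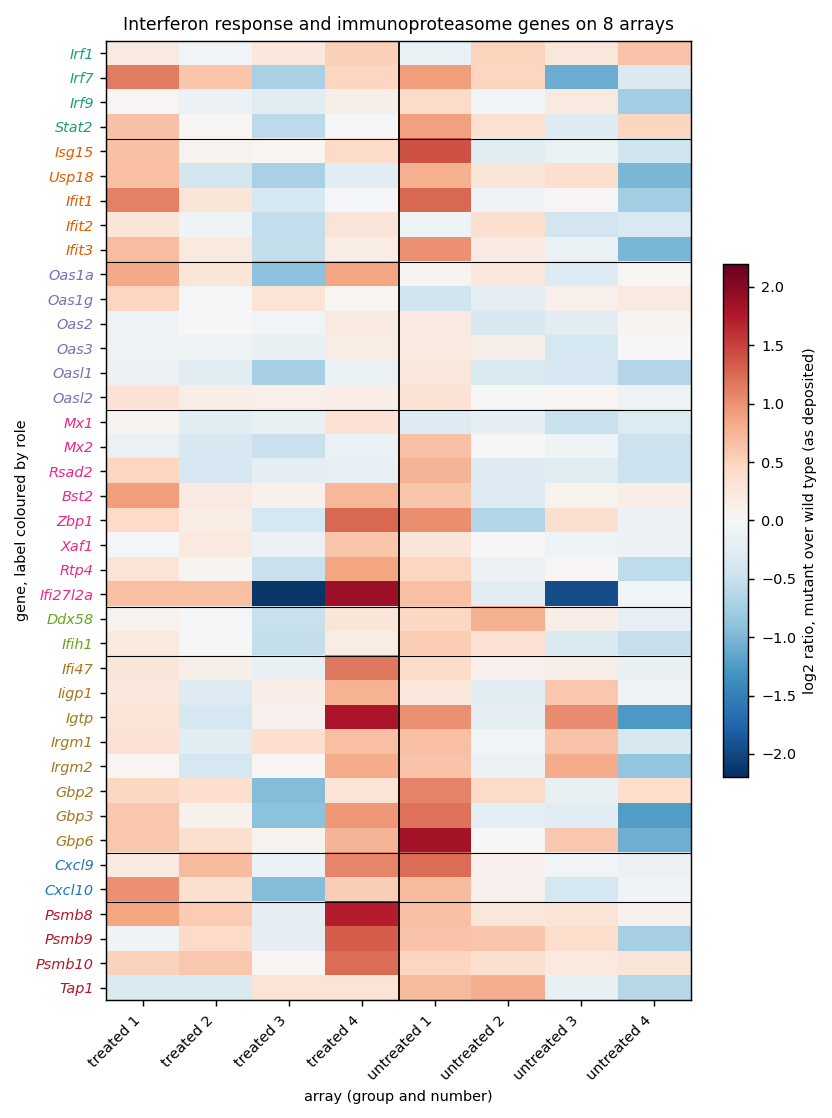
Log2 ratio of mutant over wild type of the 39 measured genes (rows, by role) on the 4 arrays of vitamin C treated and the 4 of untreated Wrn mutants (columns); red is above 0 and blue below. Treated arrays 1 and 4 and untreated array 1 are mostly red, and treated array 3 and untreated array 4 mostly blue.

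The transcription factors carry the interferon signal to DNA. Irf7, the master factor of the type I response, had log2 ratios of 1.14, 0.62, -0.72 and 0.47 on treated arrays 1 to 4, against 0.92, 0.48, -1.09 and -0.32 on untreated arrays 1 to 4. It was above 0 on arrays 1 and 2 of both groups and below on array 3 of both, and the groups overlapped. Within each number the treated array was the higher one, and the estimate between treated and untreated mutants was 0.38 ± 0.29 (adjusted p = 0.974 in limma). Stat2, a factor of the type I response, had 0.64, 0.03, -0.57 and -0.02 on the treated arrays and 0.90, 0.34, -0.29 and 0.47 on the untreated ones. Here the treated array was the lower one within each number, at -0.34 ± 0.24 between the groups.

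Irf1, an early target of interferon gamma and itself an activator, had 0.20, -0.06, 0.23 and 0.53 on treated arrays and -0.15, 0.48, 0.24 and 0.63 on untreated arrays. Values were small and overlapped, with 1 array below 0 in each group. Its 3 features did not move together: on treated array 3 they read 2.33, -0.81 and -0.83, which the gene mean of 0.23 hides. With the median of the features in place of their mean, Irf1 in untreated mutants over wild type was 0.18 and no longer reached an unadjusted p of 0.05, as also without untreated array 2 (0.17) or untreated array 4 (0.23). With the swapped arrays turned it would be -0.14. Irf9, which binds the ISRE with Stat2, had 0.02, -0.13, -0.25 and 0.13 on treated arrays and 0.41, -0.06, 0.19 and -0.75 on untreated arrays, all within the spread of the arrays.

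Isg15 encodes a ubiquitin-like protein that is joined to other proteins during the response, and Usp18 encodes the protease that removes it. Isg15 had 0.64, 0.08, 0.03 and 0.42 on treated arrays, against 1.39, -0.25, -0.14 and -0.44 on untreated arrays. All 4 treated values were above 0, and untreated array 1 alone was above 0 in its group, yet it was the highest of the 8. The estimates over wild type were 0.29 ± 0.24 in treated and 0.14 ± 0.24 in untreated mutants. Ifit1, which binds foreign RNA ends and blocks their translation, had 1.11, 0.26, -0.39 and -0.02 on treated arrays, against 1.26, -0.08, 0.02 and -0.77 on untreated arrays. Array 1 was the highest of its group in both, as it was for Isg15.

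Usp18 had 0.66, -0.41, -0.72 and -0.23 on treated arrays and 0.78, 0.27, 0.38 and -1.0 on untreated arrays, with array 1 again the highest in each group. Its estimate between treated and untreated mutants, -0.28 ± 0.33, was the lowest of the 5 genes of this role. Ifit2 stood at -0.02 ± 0.15 in treated and -0.13 ± 0.15 in untreated mutants over wild type, and Ifit3 at 0.13 ± 0.20 and 0.01 ± 0.20. Over the 5 genes the median was 0.66 on treated array 1, with all 5 above 0, and -0.52 on treated array 3, with 1 above 0. On untreated array 1 it was 1.01, with 4 above 0, and on untreated array 4 it was -0.77, with none above 0.

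The Oas genes encode enzymes that, on binding double-stranded RNA, make a small messenger that activates RNA cleavage, and Oasl1 and Oasl2 are relatives of them. Oasl1, in mice a brake on Irf7 translation, had -0.12, -0.24, -0.72 and -0.15 on treated arrays, against 0.24, -0.34, -0.37 and -0.65 on untreated arrays. It was below 0 on 7 of 8 arrays, with untreated array 1 as the exception, and stood at -0.31 ± 0.13 in treated (adjusted p = 0.702) and -0.28 ± 0.13 in untreated mutants over wild type. Its unadjusted p in treated mutants was above 0.05 without treated array 1 (-0.31), 2 (-0.27) or 3 (-0.22) and without the dye term, and with the swapped arrays turned the estimate would be 0.13. Its neighbour Oasl2 had 0.32, 0.15, 0.11 and 0.15 on treated arrays, all above 0, against 0.32, -0.01, 0.04 and -0.11 on untreated arrays. The treated array was the higher one within each number, by little on array 1, and the estimate between the groups was 0.13 ± 0.13.

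Oas1a had 0.83, 0.26, -0.91 and 0.86 on treated arrays and 0.07, 0.23, -0.28 and 0.02 on untreated arrays, wide in the treated group and narrow in the untreated one. Oas1g had 0.47, -0.03, 0.31 and 0.04 on treated arrays and -0.45, -0.21, 0.12 and 0.21 on untreated arrays, and its estimate between the groups, 0.28 ± 0.18, was the highest of the 6. Oas3 stood at -0.06 ± 0.12 in treated and -0.02 ± 0.12 in untreated mutants over wild type, and Oas2 at -0.08 ± 0.12 in untreated mutants. The 2 features of Oas2, of Oas3 and of Oasl2 each differed in sign in a group mean. Oas1a and Oas1g lie side by side and are close relatives, so their features may share signal.

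Among the other effectors, Bst2 encodes tetherin, which holds budding virus at the cell surface. It had 0.92, 0.19, 0.09 and 0.73 on treated arrays, against 0.60, -0.28, 0.08 and 0.14 on untreated arrays. All 4 treated values were above 0, with arrays 1 and 4 the highest, and each was above the untreated array of its number, though the groups overlapped. Bst2 stood at 0.48 ± 0.17 in treated (1.40-fold, adjusted p = 0.681) and 0.14 ± 0.17 in untreated mutants over wild type. With the swapped arrays turned, its treated estimate would be 0.07. Without treated array 1 its treated estimate was 0.33 and without treated array 4 it was 0.36, and its unadjusted p was then above 0.05. Bst2 lies on chromosome 8, as do Psmb10 and Wrn itself, 208 places from Wrn in the order of measured genes (501 for Psmb10).

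The Mx genes encode GTPases that trap incoming virus, and many laboratory strains carry a defective Mx1. Mx1 had 0.06, -0.22, -0.16 and 0.32 on treated arrays, against -0.29, -0.20, -0.49 and -0.30 on untreated arrays, which were all below 0. The estimate between treated and untreated mutants was 0.32 ± 0.16 (adjusted p = 0.974), and without untreated array 3 Mx1 stood at -0.25 in untreated mutants over wild type, with an unadjusted p above 0.05. With the swapped arrays turned, that estimate would be 0.07. Its 2 features did not track each other, reading -1.14 and 0.56 on untreated array 1. Mx2 had -0.15, -0.35, -0.49 and -0.14 on treated arrays, all below 0, against 0.64, -0.01, -0.09 and -0.48 on untreated arrays. For Mx2 the estimate over wild type was -0.28 ± 0.14 in treated mutants.

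Rsad2, which encodes viperin, had 0.47, -0.37, -0.20 and -0.18 on treated arrays and 0.75, -0.29, -0.26 and -0.48 on untreated arrays, above 0 on array 1 of both groups and below 0 on the other 3. Ifi27l2a, a small interferon-induced membrane protein, had the widest range, with 0.65, 0.66, -2.15 and 1.89 on treated arrays, against 0.66, -0.23, -1.95 and -0.07 on untreated arrays. Array 3 was the lowest in both groups and shares its wild type number, and its 2 features read -2.88 and -1.41 on treated array 3 and -2.85 and -1.04 on untreated array 3. The estimates, 0.26 ± 0.53 in treated and -0.40 ± 0.53 in untreated mutants over wild type, were smaller than their SE. Zbp1, a sensor that can start necroptosis, stood at 0.36 ± 0.29 and 0.15 ± 0.29, and Rtp4 at 0.19 ± 0.21 and -0.05 ± 0.21 in treated and untreated mutants. Xaf1, which promotes cell death, was at 0.16 ± 0.14 in treated mutants.

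The sensors Ddx58 (RIG-I) and Ifih1 (MDA5) detect viral RNA in the cytosol. Ddx58 had 0.08, -0.05, -0.50 and 0.27 on treated arrays, against 0.46, 0.78, 0.14 and -0.19 on untreated arrays, and was lower on the treated array in numbers 1 to 3. Its estimate between treated and untreated mutants was -0.35 ± 0.21. Ifih1 was likewise lower on the treated array in numbers 1 to 3 and stood at -0.06 ± 0.20. Features of both genes differed in sign.

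The GTPases of the Irg and Gbp families are recruited to the vacuoles of intracellular parasites and bacteria and are mainly induced by interferon gamma. Igtp had 0.28, -0.39, 0.09 and 1.79 on treated arrays, against 1.01, -0.22, 1.04 and -1.26 on untreated arrays. Treated array 4 was the highest and untreated array 4 the lowest of the 8, a gap of 3.05, the largest of any gene of the module within a number. Its neighbour Irgm2 had 0.05, -0.38, 0.05 and 0.81 on treated arrays and 0.63, -0.12, 0.81 and -0.87 on untreated arrays, in the same order on array 4. Both neighbours were lower on the treated array in numbers 1, 2 and 3. So were Irgm1 and Psmb9, whose windows lack the pair of GAS-type and ISRE-type matches. A relation of the values to the matches was not tested.

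Gbp6 had 0.59, 0.35, 0.07 and 0.76 on treated arrays, all above 0, against 1.84, -0.01, 0.59 and -1.07 on untreated arrays. Gbp3 had 0.60, 0.10, -0.89 and 0.95 on treated arrays, against 1.19, -0.19, -0.23 and -1.24 on untreated arrays. In both genes untreated array 1 was the highest and untreated array 4 the lowest of the 8, so the treated values lay inside the untreated range. Gbp2 differed from its relatives on array 4: it had 0.45, 0.37, -0.96 and 0.30 on treated arrays and 1.09, 0.43, -0.16 and 0.39 on untreated arrays, lower on the treated array in all 4 numbers. It stood at 0.44 ± 0.20 in untreated mutants over wild type, and treated minus untreated was -0.40 ± 0.28.

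Over wild type, all 8 GTPases were above 0 in treated mutants (median 0.25) and 7 of 8 in untreated mutants (median 0.14), none at an unadjusted p under 0.05. The remaining members, Ifi47, Iigp1 and Irgm1, stood at 0.35 ± 0.19, 0.22 ± 0.16 and 0.28 ± 0.19 in treated mutants. In untreated mutants they stood at 0.12 ± 0.19, 0.13 ± 0.16 and 0.22 ± 0.19.

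Cxcl9 and Cxcl10 attract activated T cells. Cxcl9 had 0.19, 0.70, -0.13 and 1.07 on treated arrays, against 1.22, 0.09, -0.07 and -0.13 on untreated arrays, and Cxcl10 had 1.00, 0.35, -0.96 and 0.54 on treated arrays, against 0.69, 0.10, -0.38 and -0.08 on untreated arrays. Array 3 was below 0 for both genes in both groups, and arrays 1 and 2 were above 0 in both. The estimates over wild type were 0.46 ± 0.24 in treated and 0.28 ± 0.24 in untreated mutants for Cxcl9, and 0.23 ± 0.22 and 0.08 ± 0.22 for Cxcl10.

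The immunoproteasome subunits Psmb8, Psmb9 and Psmb10 replace Psmb5, Psmb6 and Psmb7. Psmb8 had 0.86, 0.57, -0.20 and 1.73 on treated arrays, against 0.65, 0.26, 0.29 and 0.09 on untreated arrays. Psmb10 had 0.51, 0.60, 0.04 and 1.23 on treated arrays, against 0.47, 0.35, 0.21 and 0.27 on untreated arrays. Psmb10 was above 0 on all 8 arrays and Psmb8 on all but treated array 3, and for both treated array 4 was the highest and treated array 3 the lowest of the 8. Psmb10 was 1 of 5 genes of the module above 0 on all 4 treated arrays, with Isg15, Oasl2, Bst2 and Gbp6 (12.8%, against 6.5% of all genes), while Oasl1 and Mx2 were below 0 on all 4 (5.13%, against 6.72%). Psmb8 and Psmb10 were the 2 above 0 on all 4 untreated arrays (5.13%, against 5.72%), and Mx1 alone in the module was below 0 on all 4 (2.56%, against 7.22%).

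Without treated array 4 the estimate of treated mutants over wild type was 0.32 for Psmb8 and 0.33 for Psmb10, against 0.74 and 0.60 with it. Psmb10 kept an unadjusted p under 0.05 without it and Psmb8 did not. The 2 features of Psmb8 were of the same sign, with treated means of 0.62 and 0.86, against untreated means of 0.25 and 0.40. On arrays 1 and 2 alone, where the direction does not depend on the turning of the swapped arrays, Psmb8 stood at 0.72 and Psmb10 at 0.56 in treated mutants over wild type. If the swapped arrays had not been turned, the 4-array values would be -0.02 and -0.04.

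Psmb9 had -0.10, 0.43, -0.19 and 1.33 on treated arrays, against 0.63, 0.60, 0.39 and -0.73 on untreated arrays, with array 4 the highest of the treated and the lowest of the untreated arrays. Tap1, which shares most of its printed window with Psmb9, had -0.31, -0.31, 0.30 and 0.30 on treated arrays, against 0.70, 0.81, -0.15 and -0.63 on untreated arrays. Its groups did not overlap within a dye orientation: on arrays 1 and 2 both treated values were below both untreated values, and on arrays 3 and 4 both were above. The estimate between treated and untreated mutants was -1.07 on arrays 1 and 2, 0.69 on arrays 3 and 4, and -0.19 ± 0.32 over all. With the swapped arrays turned it was -0.88 (adjusted p = 1.0), below 0 under both readings but of different size.

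The constitutive subunits were close to 0: Psmb5, Psmb6 and Psmb7 stood at 0.11 ± 0.10, 0.04 ± 0.10 and -0.02 ± 0.09 in treated mutants over wild type, and at -0.12 ± 0.10, -0.04 ± 0.10 and 0.06 ± 0.09 in untreated ones. Of 14 other class I presentation genes, 6 were higher and 1 lower at an unadjusted p under 0.05 in treated mutants over wild type (all genes 3.73% and 3.37%), and none passed the adjusted p. The class I heavy chains H2-K1 and H2-D1 stood at 0.49 ± 0.12 and 0.36 ± 0.11, and Psme1, a subunit of the proteasome activator, at 0.45 ± 0.12. H2-K1 had 0.93, 0.39, 0.09 and 0.55 on treated arrays, all above 0, against 0.29, 0.33, 0.11 and -0.20 on untreated arrays. On treated arrays H2-D1 had 0.69, 0.43, -0.10 and 0.42, and Psme1 had 0.75, 0.54, -0.09 and 0.60. As in the module, the size of these estimates rests on the sign of arrays 3 and 4. The chaperone Canx was the lower one, at -0.24 ± 0.10. In untreated mutants over wild type 2 of the 14 were higher at that p (all genes 3.14%), H2-D1 (0.31 ± 0.11) and Tapbpl (0.32 ± 0.13), and the class I light chain B2m stood at 0.07 ± 0.13.

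The other genes of the pathway were read in whole lists. None of 10 ligands and none of 18 receptor and signalling genes reached an unadjusted p under 0.05 in any comparison, with list medians in treated mutants over wild type of 0.04 and 0.03. The receptor genes Ifnar1 and Ifngr1 stood at -0.02 ± 0.11 and 0.26 ± 0.26 in treated mutants. Of 15 sensor and adaptor genes, the adaptor Ticam1 (0.37 ± 0.11) and the DNase Trex1 (0.35 ± 0.13) were higher at that p in treated mutants over wild type (all genes 3.73%). Of 42 other interferon-stimulated genes, 4 were higher in treated mutants (all genes 3.73%) and 4 in untreated mutants (all genes 3.14%) over wild type at that p. Examples are Gbp8 at 1.00 ± 0.36 and Ifitm2 at 0.53 ± 0.14 in treated mutants, and Samd9l at 0.52 ± 0.12 in untreated mutants. On treated arrays 1 to 4 Gbp8 had 0.66, 0.26, 0.54 and 2.56, and Ifitm2 had 0.66, 0.01, 0.50 and 0.92. Between treated and untreated mutants Gbp9 (0.68 ± 0.28) was higher and Samd9l (-0.47 ± 0.16) and, of the class I list, Canx (-0.40 ± 0.15) lower at that p (all genes 2.37% and 1.91%). None of these genes passed the adjusted p of 0.05. Their estimates, as those of the module, rest on the sign of arrays 3 and 4.

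Setting the arrays of 1 number against each other, which share a wild type number, gave no common direction for the module. The median of treated minus untreated over the 39 genes was -0.30 in number 1, 0.03 in number 2, -0.30 in number 3 and 0.79 in number 4, where all genes had medians of 0.01 to 0.03. The treated array was the higher one for 12, 21, 10 and 35 of the 39 genes. With the swapped arrays turned, the medians of numbers 3 and 4 would be 0.30 and -0.79. As deposited, in number 4 the GTPases had a median difference of 1.5, the immunoproteasome and Tap1 genes 1.30 and the Oas genes 0.22. In numbers 1 and 3 the GTPases had -0.59 in each.

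Over all 8 arrays no gene of the module had treated and untreated values that did not overlap, where 1.21% of all genes were entirely above and 1.04% entirely below. Irf7, Oasl2 and Bst2 were higher on the treated array in all 4 numbers (7.69%, against 9.17% of all genes), and Stat2 and Gbp2 lower in all 4 (5.13%, against 6.66%). Without both arrays of number 4, the median of treated over untreated mutants was -0.16, against 0.13 with them, and without treated array 4 alone it was -0.13.

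**Figure D5:**
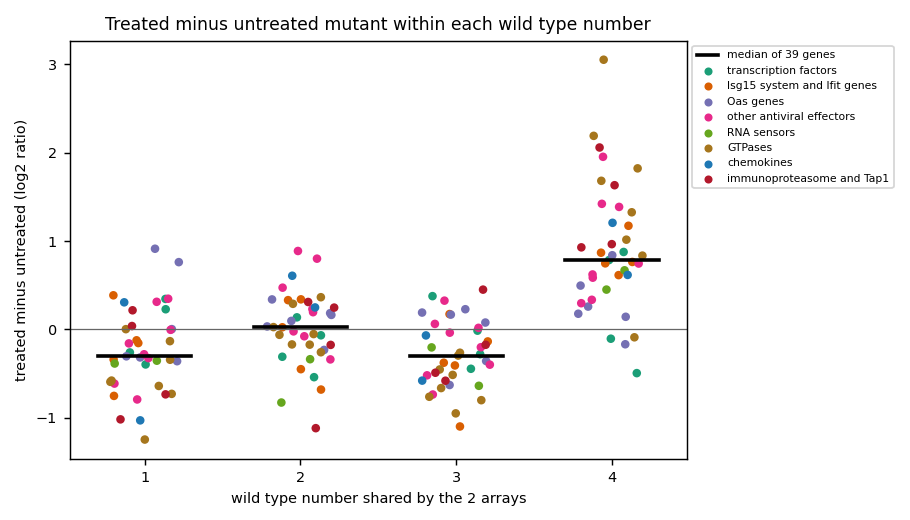
Treated minus untreated log2 ratio within each replicate number for the measured genes of the module (points, coloured by role); black lines are medians of the 39 genes. Points of number 4 lie mostly above 0, with a median of 0.79, and those of numbers 1 and 3 mostly below, with medians of -0.30.

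Marker genes of macrophages differed between the same arrays. Of 13 Kupffer cell and macrophage markers, 11 were measured, with medians of 1.28, 1.09, -1.45 and 1.88 on treated arrays 1 to 4 and 1.17, 0.80, -1.61 and 0.35 on untreated arrays 1 to 4. They were above 0 for 10, 10, 0 and 11 of 11 on the treated arrays and 11, 11, 0 and 11 of 11 on the untreated arrays. In number 4 all 11 were higher on the treated array, by a median of 1.60, and in numbers 1, 2 and 3 the median differences were 0.22, 0.29 and 0.12. As deposited, array 3 was thus the lowest for both macrophage markers and the module in treated mutants, whereas untreated array 4 was the lowest for the module with the macrophage markers above 0. With the swapped arrays turned, the macrophage marker medians would be above 0 on array 3 and below 0 on array 4 in both groups. The marker differences in numbers 3 and 4 would then change sign. Some other marker lists were also low on array 3 as deposited. Their medians on the treated and untreated array were -0.93 and -1.06 for B and plasma cells, -0.70 and -0.60 for monocytes and neutrophils, and -0.66 and -0.64 for endothelial cells. Those of dendritic cells (-0.09 and 0.18), T and NK cells (-0.14 and 0.03) and hepatocytes (-0.30 and -0.25) were nearer 0. The part of these markers in the module's values was not tested, and with log ratios it cannot be said which markers were absent. In number 4 the 6 monocyte and neutrophil, 5 endothelial and 4 hepatocyte markers measured were, as deposited, also all higher on the treated array. The median differences were 0.66, 0.70 and 0.18. Over wild type, as deposited, the macrophage markers had medians of 0.69 in treated (10 of 11 above 0) and 0.12 in untreated mutants (9 above 0). Their median SE was 0.47. T and NK cell genes had medians near 0 in treated (0.01) and untreated (0.00) mutants over wild type. Of these, Cd8b1 stood apart on array 3, at -3.25 on the treated and -1.93 on the untreated one.

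Part of the module also differed with dye orientation, as the arrays are read here. The dye coefficient of the fit was above 0 for 29 of the 39 genes (74.4%, against 45.6% of all genes). None passed an adjusted p of 0.05, against 371 genes (1.94%). At an unadjusted p under 0.05 it was above 0 for 7 (17.9%, against 8.76%), namely Irf7, Stat2, Ifit1, Ifit3, Ifih1, Gbp2 and Cxcl10, and below 0 for none (all genes 6.82%). On the 4 arrays with the mutant in Cy5, 10 genes were above 0 on all 4 (25.6%, against 12.4% of all genes): Irf7, Stat2, Ifit3, Oas1a, Ifi47, Gbp2, Cxcl9, Cxcl10, Psmb8 and Psmb10. On the 4 arrays with it in Cy3, Irf1, Oas1g, Bst2 and Psmb10 were (10.3%, against 9.78%), and Oasl1, Mx2 and Rsad2 were below 0 on all 4 (7.69%, against 10.7%). With 2 arrays of each orientation per group, the coefficient cancels in the group means as read here. Under the other reading of the swapped arrays, the same coefficient is the mean of the 2 mutant estimates over wild type. For Irf7 it was 0.60, and those estimates would be 0.50 in treated and 0.70 in untreated mutants. A dye difference and a difference shared by both mutant groups therefore cannot be told apart here. Both arrays of a number have the same orientation. A dye difference thus also cannot be told from a difference of wild type numbers 1 and 2 from numbers 3 and 4. The fit treats the 2 arrays of a number as independent, so p-values of the dye coefficient do not measure the spread between numbers. If the swapped arrays had not been turned, no gene of the module would pass the adjusted p (over all genes it would be 10, or 0.0524%, for treated mutants and 9, or 0.0472%, for untreated mutants), and at an unadjusted p under 0.05 Irf7 would be higher (all genes 5.38%) and Tap1 lower (3.77%) in treated mutants over wild type. In untreated mutants Irf7, Ifit3, Ifih1 and Tap1 would be higher (5.77%), and between treated and untreated mutants Tap1 would be lower and no gene higher (all genes 1.54% and 1.46%).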

How the data were processed

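The authors deposited log ratios of 45220 features on 8 arrays, read here as log2 values; no label or note states the log base, background correction or normalization. The submitters' processing notes name limma, without a version or role. The table had no missing value and no per-sample column was left unused. Of these features, 33653 had 1 symbol in the platform's probe-to-gene table, 56 had more than 1 and 11511 had no symbol. Features of a gene were averaged, giving 19087 genes with no filter, since no intensity is given. Each gene was fitted on all 8 arrays with limma 3.58.1 (lmFit and eBayes) in R 4.3.3, with a term per group and a dye term of opposite sign on swapped arrays (5 residual degrees of freedom). P-values were adjusted by Benjamini-Hochberg over all genes. The fit was also run on simulated independent arrays with changes of log2 1 and 2, larger than any 4-array estimate of the module. That run did not check the fit for arrays that share a wild type number or for changes as small as those found here. Deviations from the group mean correlated between arrays of the same number (r = 0.381, 0.324, 0.514 and 0.341 over genes in numbers 1 to 4). The labels also give both the same wild type number, so the number was used to pair them in the replicate block. The fit with the dye term leaves this pairing out. Between treated and untreated mutants the SE of Irf7 was 0.29 in that fit and 0.15 with the block.

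The members and gene lists were chosen with earlier results of these data known. Genes given by array and estimate are representatives of each role and, for each comparison, the 4 members of smallest p in each direction; the other members are given by estimates or counts. Promoter windows are RefSeq's (GRCm38.p6), searched with Python 3.11.15. Alternatives changed the reading of the swapped arrays, the block, the dye term, the summary of features, the scaling, the moderation and the arrays used. The number of arrays limits the precision, and p-values measure the spread between them. Those of the replicate block over wild type leave out the spread between numbers.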

Additional observations from a re-analysis of the deposited data

Results flagged for a closer look

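In 4 of 80 groups of 4 arrays, 1 array stood far from the other 3, measured as its gap to the nearest value over the whole range of the group. The cutoff would flag about 1 in 20 groups if their values were independent, and the share found was the same. The genes share their arrays, so this count cannot tell chance from a real difference. The ratio was 0.834 for Isg15 in untreated mutants, where array 1 (1.39) was high, and 0.837 for Cxcl9 in untreated mutants, where array 1 (1.22) was high. It was 0.843 for Oas3 in vitamin C treated mutants, where array 4 (0.17) was high, and 0.897 for Gbp2 in treated mutants, where array 3 (-0.96) was low.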

How the results depend on the processing

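No gene of the module passed an adjusted p of 0.05 in limma under any of the alternatives run. The median over the 39 genes moved by less than the spread between arrays. That says little about stability, since leaving out 1 of 4 arrays moves a mean by only part of this spread. The median did not keep its sign. It ran between -0.06 (without treated array 4) and 0.31 in treated mutants over wild type, between -0.17 (only arrays with the mutant in Cy3) and 0.29 in untreated mutants over wild type, and between -0.20 (swapped arrays turned) and 0.30 between treated and untreated mutants. Counts of genes at an unadjusted p under 0.05 ran from 0 to 8, 1 to 10 and 0 to 4 in these comparisons. Of 68 estimates of named genes, 32 changed sign with the swapped arrays turned, 21 on Cy3 arrays alone and 16 without both arrays of number 4. With the replicate block, without the dye term or with robust moderation 0 did. This was fixed by the balanced design, in which these settings change SE and p but no estimate. For the same reason the replicate block left the medians at 0.19, 0.11 and 0.13. It changed no adjusted call. Leaving out number 4 moved the count of all genes passing from 0 to 8 in treated and 15 in untreated mutants over wild type. Without intensities, features close to background could not be told from bright ones, and 9 of the 13 genes with several features had features of opposite sign in a group mean.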
